A study of Mus musculus with 6 samples.

Results

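The cytosolic ribosomal protein genes encode the protein parts of the ribosome outside mitochondria. They were taken as every non-control probe whose gene name in the scanner files is Rpl or Rps followed by a number with an optional a, x, l or y, together with Rplp0, Rplp1, Rplp2 and Rpsa, and without the Rps6k kinases. The rule finds 137 of 41174 probes and 80 of 27827 gene names, 48 of the large and 32 of the small subunit. It uses names only and no measured value. Of the 137 probes 128 were well above background on all 6 arrays, 8 were so on no array, and the probe of Rpl3l was so on 2. Probes that passed background on 3 or more of the 6 arrays were tested, which leaves 78 genes, 46 of the large and 32 of the small subunit. Rpl3l, the striated muscle relative of Rpl3, and Rpl39l, the testis relative of Rpl39, were not tested.

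Islets of the pancreas from 2 obese mouse strains were measured on 1-colour Agilent arrays, 1 labelled sample per array. NZO samples 10, 11 and 12 come from NZO/HiBomDife males, labelled diabetes-prone. B6-ob/ob samples 4, 5 and 6 come from C57BL/6.V-Lepob/ob males, which carry the ob allele of the leptin gene in both copies and are labelled diabetes-resistant. Both strains ate a fatty diet free of carbohydrate to the age of 18 weeks and then a diet with carbohydrate for 48 h before islets were isolated. Whether islets of 1 mouse or of several went into a sample is not stated, so the p-values speak only of the spread among the 6 samples, which may be technical. Besides the susceptibility that goes with it, strain, and so the whole genetic background, is the only labelled difference, and no islets from before the change of diet were analysed here.

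A ribosome reads messenger RNA with its small subunit and joins amino acids with its large subunit. Its proteins are needed in near equal numbers, and in most tissues their transcripts are abundant and vary together. In mammals these transcripts begin with a C followed by a run of C and T, the 5′ terminal oligopyrimidine tract, through which mTORC1 and the binding protein Larp1 set how actively they are translated. Beta cells make insulin in bulk and depend on a large capacity for translation. The comparison asks whether islets of the strain prone to diabetes and of the resistant strain hold different amounts of these transcripts, and how the single samples of each strain are ordered.

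The shared start is shown first because it is the sequence feature that marks these genes. RefSeq start windows on GRCm38.p6 were found for 60 of the 80 genes (72 windows, some genes having several). The motif searched was a C at the annotated start base followed by at least 4 bases that are C or T, on the gene's own strand. It was present in 18.1% of these windows and in 2.51% of all 32851 windows of mouse genes. A window without it says only that these letters are not at the annotated base. The lines give 15 bases before and 15 from the start on, with the pyrimidine run in capitals, for the kinase target Rps6, for Rps27 and Rpl28 with the highest strain differences, for the stalk protein Rplp2, and for Rpl11, the gene called below, whose window has no such run.
Rps6, chr4:86857353-86857382, minus strand: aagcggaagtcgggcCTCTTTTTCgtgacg
Rps27, chr3:90213634-90213663, minus strand: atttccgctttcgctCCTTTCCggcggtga
Rpl28, chr7:4792950-4792979, plus strand: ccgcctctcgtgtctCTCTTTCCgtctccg
Rplp2, chr7:141447636-141447665, plus strand: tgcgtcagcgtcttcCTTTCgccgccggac
Rpl11, chr4:136053379-136053408, minus strand: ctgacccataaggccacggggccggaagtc

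The arrays read each transcript with probes of 60 bases, and 38 of the tested genes have more than 1 tested probe. Those of Rpl11 and Rpl29 are shown because probes of each gene gave different results. They were read from the scanner files, with positions on mm9. The first Rpl11 probe covers 323 bases of the genome with its 60, so it crosses an intron. The other, from the clone AK014593, starts and ends more than 60 bases inside those 323. It thus lies in the stretch that the first probe skips, which a transcript spliced as the first probe reads does not hold. The 4 Rpl29 probes follow in genome order, and the capitals mark 20 bases that the last 2 share.
Rpl11 A_51_P394524, chr4:135605885-135606207, minus strand: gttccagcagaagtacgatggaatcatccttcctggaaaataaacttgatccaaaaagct
Rpl11 A_52_P566208, chr4:135605957-135606016, minus strand: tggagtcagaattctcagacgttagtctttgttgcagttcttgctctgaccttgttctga
Rpl29 A_51_P400137, chr9:106331969-106332651, plus strand: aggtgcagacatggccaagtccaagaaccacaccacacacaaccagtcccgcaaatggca
Rpl29 A_52_P326158, chr9:106332644-106332703, plus strand: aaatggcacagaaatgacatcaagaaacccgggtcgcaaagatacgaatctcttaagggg
Rpl29 A_52_P505977, chr9:106333409-106333468, plus strand: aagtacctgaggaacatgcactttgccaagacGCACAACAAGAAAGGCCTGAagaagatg
Rpl29 A_52_P217069, chr9:106333436-106333495, plus strand: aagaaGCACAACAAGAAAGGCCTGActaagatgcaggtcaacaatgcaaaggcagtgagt

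Levels below are log2 of the processed intensity minus the array's 75th percentile over all probes, so 0 is the brightness that 75% of probes do not exceed, and each gene is read by its brightest tested probe. Differences are NZO minus B6-ob/ob, as the scanner files are labelled. The authors' deposited value table gives the opposite sign, because each of its 6 columns follows an array labelled with the other strain. Over 18307 probes centred on their own mean, a column correlated with the array it follows at 0.966 to 0.984 and with the array of its own label at -0.78 to -0.52. Which of the 2 sets of labels is right was not tested. Between 23621 and 24710 probes were well above background on an array, no ribosomal protein spot was marked as an outlier, and no probe was marked saturated.

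Of the 78 ribosomal protein genes none was higher in NZO islets and 1, Rpl11, was lower at an adjusted p under 0.05 (limma, Benjamini-Hochberg over 16418 genes). Over all genes tested 13.2% were higher and 9.00% were lower, 22.2% in all. At an unadjusted p under 0.05 the counts were again 0 higher and 1 lower among the 78, against 19.0% and 16.2% of all genes. The family's differences ran from -0.75 at Rpl11 to 0.42 at Rps27, with a median of 0.13, against -0.03 over all genes. They were positive at 64 genes and negative at 14, and 77 of the 78 lay within 0.5 of 0. Their standard errors were 0.140 to 0.293.

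**Figure D1:**
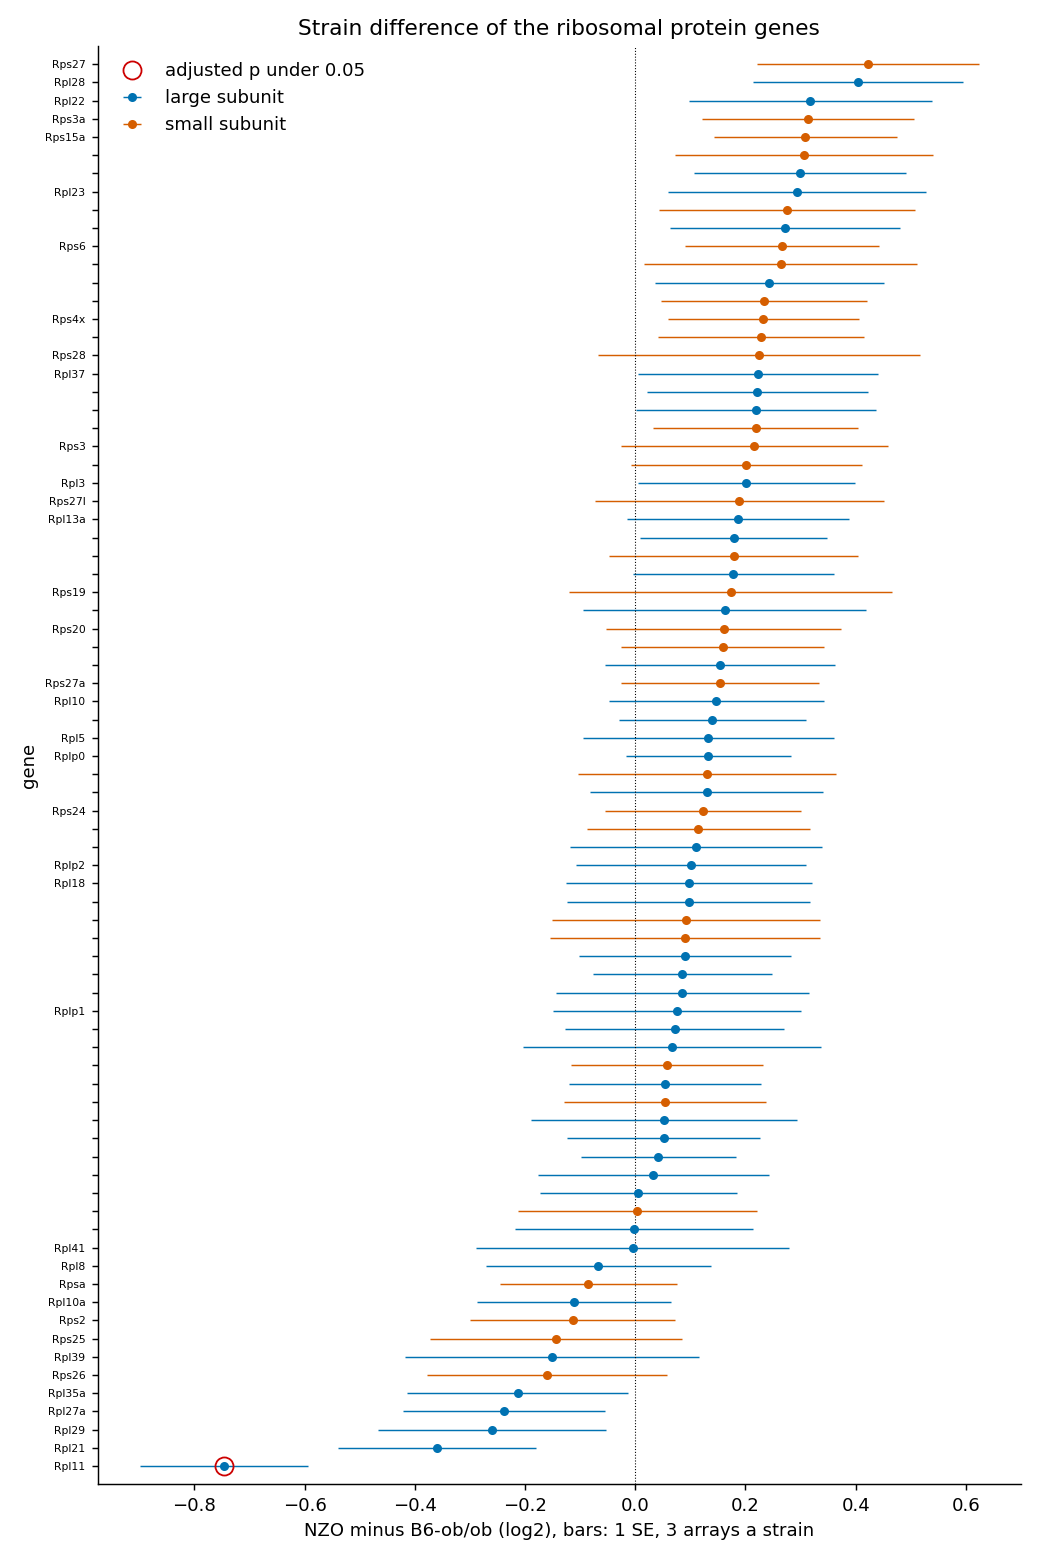
Difference NZO minus B6-ob/ob (log2) of each of the 78 ribosomal protein genes, sorted, with 1 standard error (3 arrays a strain), blue for the large and orange for the small subunit; the genes described in the text are labelled. Rpl11 at -0.75, ringed, stands apart at the low end, and the other 77 genes lie within 0.5 of 0.

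The strains overlapped at nearly every member. The 3 NZO arrays lay wholly above the 3 B6-ob/ob arrays at none of the 78 genes (20.7% of all genes) and wholly below them at 2, Rpl11 and Rpl21 (20.4%), while 41.1% of all genes had strains that did not overlap. At 73 of the 78 genes the strain difference was smaller than the range within either strain, against 44.4% of all genes. The 46 large subunit genes had a median difference of 0.10, with 36 positive, and the 32 small subunit genes had 0.18, with 28 positive.

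Rpl11 binds the 5S ribosomal RNA together with Rpl5 and, outside the ribosome, the p53 regulator Mdm2. Its level was 6.73, 6.82 and 6.60 in NZO samples 10, 11 and 12, against 7.73, 7.35 and 7.32 in B6-ob/ob samples 4, 5 and 6. Every NZO array lay below every B6-ob/ob array. The difference was -0.75 ± 0.15 (SE, n = 3 a strain; limma adjusted p = 0.0173). With each array centred on the mean of the 78 genes it was -0.85 (limma adjusted p = 0.0207). The family then had 0 genes higher and 1 lower, against 8.69% and 4.90% of all genes. That centring removes the family's mean difference by construction, so these family counts are not separate support. The call ended with slide as a fixed block (-0.72, adjusted p = 0.0696) and without NZO 10 (adjusted p = 0.0599), NZO 11 (0.0504), NZO 12 (0.0553) or B6-ob/ob 5 (0.0543), while the difference stayed between -0.82 and -0.62 with any 1 array left out. It also ended on the spike-in scale (-0.54, adjusted p = 0.915), with the mean of the gene's 2 probes (-0.56, adjusted p = 0.128) and with its dimmer probe in place of the brighter (-0.36, adjusted p = 0.655). The dimmer probe lies in the stretch that the brighter one skips, so the last 2 values are not second readings of the same spliced transcript.

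Rpl5 and Rpl23, which also bind Mdm2, did not pass the test. Rpl5 was at 7.92, 8.06 and 7.58 in NZO islets, against 8.03, 7.82 and 7.31 in B6-ob/ob islets, a difference of 0.13 ± 0.23 (adjusted p = 0.73 by limma, n = 3). The same samples were high and low in it as in most of the family, and the strains overlapped. Rpl23 differed by 0.29 ± 0.23.

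Rpl21, on chromosome 5, was the other gene without overlap. Its brightest probe was at 2.48, 2.57 and 2.42 in NZO islets and at 3.22, 2.63 and 2.71 in B6-ob/ob islets, a difference of -0.36 ± 0.18 (limma adjusted p = 0.216, n = 3). The strains lay close together at NZO 11 and B6-ob/ob 5, and the gene did not pass the test. That brightest probe, A_52_P258959, was designed on a clone and not on a RefSeq transcript, and 75% of its bases are G or C. The second probe, A_52_P653937, was designed on a RefSeq transcript and is described with the other probes below.

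At the high end stood Rps27, a zinc-finger protein of the small subunit, and Rpl28. Rps27 was at 7.82, 8.02 and 7.59 in NZO islets, against 7.74, 7.29 and 7.14 in B6-ob/ob islets, a difference of 0.42 ± 0.20 (limma adjusted p = 0.197, n = 3). B6-ob/ob 4 lay inside the NZO range. Rpl28 was at 6.33, 6.44 and 6.17 in NZO islets, against 6.25, 5.90 and 5.59 in B6-ob/ob islets, a difference of 0.40 ± 0.19 (limma adjusted p = 0.194, n = 3). Here too B6-ob/ob 4 fell among the NZO arrays, and neither gene passed the test. Rps27l, the close relative of Rps27 that p53 induces in human cells, differed by 0.19 ± 0.26.

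The proteins of the stalk, which recruits elongation factors to the large subunit, showed no difference past the test. Rplp0 differed by 0.13 ± 0.15, Rplp1 by 0.08 ± 0.23 and Rplp2 by 0.10 ± 0.21, and the strains overlapped at each. Rplp0, often used as a reference gene in quantitative PCR, was at 8.59, 8.87 and 8.54 in NZO islets, against 8.73, 8.40 and 8.48 in B6-ob/ob islets. It was 1 of the 2 genes whose order within B6-ob/ob differed from that of the other 76: sample 5 was the lowest of the 3, below sample 6. Rplp1 was at 8.85, 8.82 and 8.43 in NZO islets, against 9.00, 8.61 and 8.26 in B6-ob/ob islets, the order most of the family had within B6-ob/ob.

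In the small subunit, Rps6, the main ribosomal target of the S6 kinases, was at 5.81, 5.85 and 5.61 in NZO islets, against 5.76, 5.53 and 5.18 in B6-ob/ob islets (0.27 ± 0.18). B6-ob/ob 4 again lay between NZO 12 and NZO 10. Rpsa, which lines the mRNA exit side and is also known as a laminin receptor, differed by -0.08 ± 0.16, and Rps3, at the mRNA entry channel, by 0.22 ± 0.24. Rps4x, whose gene is on the X chromosome, differed by 0.23 ± 0.17 at its brightest probe and by -0.43 at its dimmest tested probe. Its probes thus disagree in sign, and none of them was called. Rps19, the gene most often mutated in Diamond-Blackfan anaemia in humans, differed by 0.17 ± 0.29, and Rps27a, made as a fusion with ubiquitin, by 0.15 ± 0.18.

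In the large subunit, Rpl3, near the peptidyl transferase centre, was at 5.87, 6.04 and 5.66 in NZO islets, against 5.91, 5.76 and 5.30 in B6-ob/ob islets (0.20 ± 0.20). The strains overlapped. Rpl10, which is added late in the maturation of the large subunit, differed by 0.15 ± 0.19, and its probe lies on chromosome 8 in the files while the gene is on X. Rpl13a differed by 0.19 ± 0.20, Rpl22 by 0.32 ± 0.22 and Rpl39, at the exit tunnel, by -0.15 ± 0.27. None of these passed the test.

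Most other members near the ends of the range showed the same samples high and low. Rps3a was at 6.62, 6.73 and 6.39 in NZO islets, against 6.56, 6.31 and 5.93 in B6-ob/ob islets (0.31 ± 0.19). Rps15a was at 5.70, 5.80 and 5.39 in NZO islets, against 5.50, 5.36 and 5.11 in B6-ob/ob islets (0.31 ± 0.17). In both, B6-ob/ob 4 lay inside the range of the NZO arrays and B6-ob/ob 6 was the lowest of all. At the other end Rpl27a was at 3.93, 3.91 and 3.68 in NZO islets, against 4.43, 3.93 and 3.87 in B6-ob/ob islets (-0.24 ± 0.18). Rpl35a was at 5.25, 5.26 and 4.84 in NZO islets, against 5.62, 5.33 and 5.03 in B6-ob/ob islets (-0.21 ± 0.20), with NZO 12 the lowest array in both. Rpl29 was at 4.13, 4.30 and 4.22 in NZO islets, against 4.83, 4.54 and 4.06 in B6-ob/ob islets (-0.26 ± 0.21), with the NZO arrays inside the B6-ob/ob range. Rps26 (-0.16 ± 0.22), Rps25 (-0.14 ± 0.23), Rps2 (-0.11 ± 0.19), Rpl10a (-0.11 ± 0.18) and Rpl8 (-0.07 ± 0.20) completed the genes below -0.05, with Rpl11, Rpl21, Rpl39 and Rpsa given above. The remaining members lay between 0 and 0.31 in size, and none passed the test.

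The larger movement lay between arrays of the same strain. Each gene's levels were centred on their mean over the 6 arrays and averaged over the 78 genes. This family mean was 0.11, 0.22 and -0.17 in NZO 10, 11 and 12, against 0.27, -0.05 and -0.38 in B6-ob/ob 4, 5 and 6. NZO 11 and B6-ob/ob 4 were the highest arrays and NZO 12 and B6-ob/ob 6 the lowest of their strains. The strain means of it were 0.05 ± 0.20 in NZO and -0.05 ± 0.33 in B6-ob/ob (SD, n = 3), a difference of 0.10 with wide overlap. The large and the small subunit had the same order of arrays within each strain. Their lowest array was B6-ob/ob 6, at -0.35 for the large and -0.42 for the small subunit, and their highest was B6-ob/ob 4 at 0.29 for the large and NZO 11 at 0.26 for the small subunit.

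**Figure D2:**
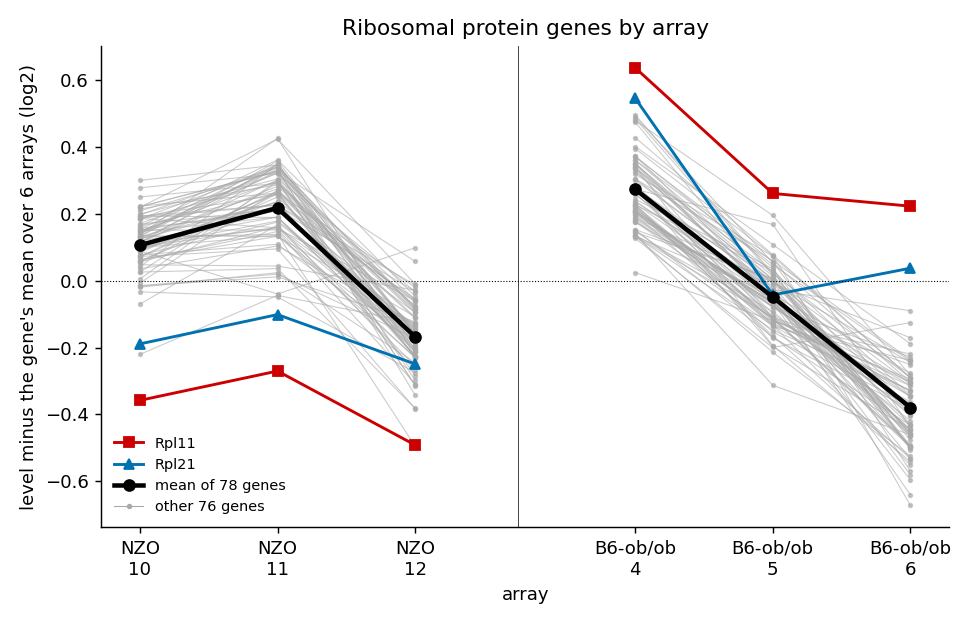
Level of each of the 78 ribosomal protein genes minus its own mean over 6 arrays (log2), by array, with NZO arrays on the left and B6-ob/ob arrays on the right. The black line is the mean of the 78 genes (0.11, 0.22 and -0.17 in NZO, 0.27, -0.05 and -0.38 in B6-ob/ob), and Rpl11 (red) and Rpl21 (blue) are the genes without overlap of the strains.

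Single genes followed this order closely. Within B6-ob/ob sample 4 was above 5 and 5 above 6 at 76 of the 78 genes, against 33.6% of all genes. Within NZO sample 11 was above 10 and 10 above 12 at 71, against 24.2%, and both orders held at 69, against 13.9%. The highest of the 6 arrays was NZO 11 at 40 genes (16.7% of all genes) and B6-ob/ob 4 at 38 (25.2%), so no other array was ever the highest, while 41.9% of all genes had their highest level in 1 of these 2. The lowest was NZO 12 at 9 genes (19.5% of all genes), B6-ob/ob 6 at 68 (23.5%) and B6-ob/ob 5 at 1 (10.7%). Genes of 1 array share its RNA, labelling and scaling, so these counts describe 6 arrays and are not independent observations.

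The size of this movement exceeded the strain difference. B6-ob/ob 4 exceeded B6-ob/ob 6 at all 78 genes, by 0.25 to 1.04 with a median of 0.62, while the median over all genes was 0.05. NZO 11 exceeded NZO 12 at 77 genes, with a median of 0.39, against 0.04 over all genes. Rpl18 was the exception in NZO, at 5.35, 5.23 and 5.36 in samples 10, 11 and 12. The median residual SD of the 78 genes was 0.278, and 0.070 once each array was centred on the family's mean. That mean comes from the same 78 genes, so some of the drop is built in.

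Among the widest ranges within a strain were those of 3 small subunit genes and of Rpl41, which encodes a very short basic peptide of the large subunit. Rps19 had a range of 0.49 in NZO and of 1.04 in B6-ob/ob, the widest of all. Its levels were 6.25, 6.29 and 5.80 in NZO 10, 11 and 12, against 6.40, 6.07 and 5.35 in B6-ob/ob 4, 5 and 6. Rps28 spanned 0.65 in NZO, with 7.26, 7.54 and 6.89, and 0.99 in B6-ob/ob, with 7.47, 7.07 and 6.48. Rpl41 spanned 0.98 in B6-ob/ob, and Rps27l spanned 0.63 in NZO. In each of them the high and the low samples were those of the family mean.

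Across the 6 arrays, which share the scaling, 62 of the 78 genes (79.5%) correlated with the mean of the other members at over 0.9, against 3.89% of 16340 other genes. The median was 0.96 for members and 0.08 for other genes. The 4 members under 0.7 were Rpl11 (0.092), Rpl21 (0.37, at its clone probe), Rpl29 (0.60) and Rpl27a (0.63). These are also the 4 lowest strain differences, from -0.75 to -0.24, and in each B6-ob/ob 4 was the highest array. The correlation spans both strains, so a strain difference unlike the family's lowers it in itself. The 3 genes outside the family most like its mean were Ufd1l, 1810046J19Rik and Rabac1, with 0.997 each over 6 arrays. Rabac1 was at 7.11, 7.35 and 6.56 in NZO islets, against 7.35, 6.82 and 6.14 in B6-ob/ob islets.

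Within slides the sign of the family's difference depended on the pair of samples. Slide 2 holds NZO 10 and B6-ob/ob 4, and there 67 of 78 genes were lower and 11 higher in NZO (45.9% of all genes were higher), with a median difference of -0.13, against -0.05 over all genes. Slide 3 holds NZO 11 and B6-ob/ob 5 and 6, and there 75 genes were higher in NZO (51.4% of all genes), with a median of 0.48, against 0.02 over all genes. Slide 1 holds NZO 12 alone. The median difference was 0.13 in all, 0.25 without NZO 12, 0.29 without B6-ob/ob 4, 0.04 without NZO 11 and -0.03 without B6-ob/ob 6.

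The order of arrays depended on how they were scaled. Median scaling, in place of the 75th percentile, kept the order of 4, 5 and 6 at 76 genes and of 11, 10 and 12 at 45. With quantile normalisation, which gives every array the same distribution, the family mean was 0.02, 0.05 and -0.09 in NZO 10, 11 and 12 and 0.10, 0.02 and -0.11 in B6-ob/ob 4, 5 and 6. The order of these means was kept but its range over arrays was 0.22, against 0.65 at the 75th percentile, and the orders held at 45 and 39 genes. Without scaling NZO 10 was the highest array (0.20), and on the scale of 7 spike-in probes NZO 12 was (0.64), with the order of 4, 5 and 6 at 3 genes. Columns of the authors' deposited table that follow NZO 10, 11 and 12 had family means of 0.03, 0.05 and -0.07, and those that follow B6-ob/ob 4, 5 and 6 had 0.10, 0.01 and -0.13.

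**Figure D3:**
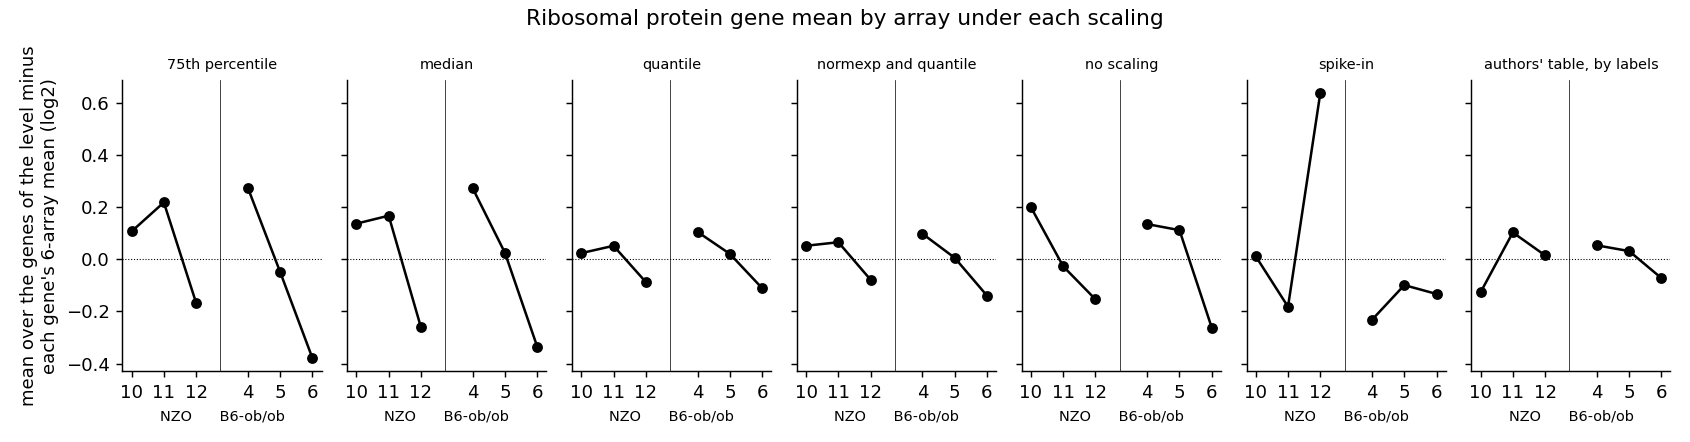
Mean over the ribosomal protein genes of the level minus each gene's 6-array mean (log2), by array, under 7 scalings on a common axis, NZO on the left and B6-ob/ob on the right of each panel. The range over arrays is 0.65 at the 75th percentile, 0.61 with the median, 0.22 with quantile normalisation and 0.87 on spike-ins, where NZO 12 is the highest, and the last panel uses the value table's own labels.

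The spread of bright signals on an array moved with the family mean. The 99th percentile of log2 intensity lay above the 75th by 5.73, 5.80 and 5.53 in NZO 10, 11 and 12, and by 5.89, 5.65 and 5.43 in B6-ob/ob 4, 5 and 6. From highest to lowest this is the order of the family mean over the 6 arrays, and its part in the result was not tested. Most ribosomal protein probes lie far above the 75th percentile, so a change in that spread and a change in these transcripts cannot be told apart.

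At probe level 1 of 128 tested probes was higher in NZO and 3 were lower at an adjusted p under 0.05 (limma over 24628 probes), against 11.5% and 10.3% of all probes (21.8% in all). Strains did not overlap at 7 probes, against 41.0% of all. Of the 4 called probes 1, of Rpl11, stands for its gene above, and the other 3 were singled out after their values were seen. Among the 38 genes with several tested probes, the differences of 28 agreed within 0.2 and those of 6 were over 0.5 apart: Rpl21, Rpl29, Rps4x, Rps24, Rps20 and Rpl37. No gene had probes called in opposite directions.

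The second Rpl21 probe, A_52_P653937 at chr5:147648267-147648326, was at -3.98, -4.01 and -3.84 in NZO islets, against -1.33, -1.35 and -1.74 in B6-ob/ob islets. It was well above background on all 6 arrays, and the strains were far apart. The difference was -2.47 ± 0.15 (limma, n = 3), against -0.36 at the brighter probe of the same gene, and it kept its call in all 18 alternatives tried for it, with -1.35 in the smallest, normexp background with quantile normalisation. The 2 probes thus disagree in size by 2.11.

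The second Rpl22 probe, A_52_P391718 at chr4:151708012-151708071, was at 3.08, 2.99 and 2.91 in NZO islets, against 2.37, 2.40 and 2.22 in B6-ob/ob islets. All NZO arrays were above all B6-ob/ob arrays, by 0.66 ± 0.12 in the mean (limma adjusted p = 0.0102, n = 3). The call ended without scaling (adjusted p = 0.104), on the spike-in scale (0.52) and with arrays centred on the family (0.16).

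Of the 4 Rpl29 probes shown above, A_52_P326158 was called. It was at 2.15, 2.18 and 2.10 in NZO islets, against 3.49, 3.15 and 2.80 in B6-ob/ob islets, a difference of -1.0 ± 0.19 (limma adjusted p = 0.0129, n = 3), which lost its call without B6-ob/ob 5 (adjusted p = 0.0565) and on the spike-in scale (0.62). The brightest Rpl29 probe, which shares 8 bases with it, differed by -0.26, and the remaining pair by -0.33 and -0.37. All 4 had their highest level in B6-ob/ob 4, and the size of the strain difference varied from probe to probe.

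The clone probe of Rpl11, A_52_P566208, had another order of arrays than the called probe of the same gene. It was at -2.37, -1.40 and -0.88 in NZO islets, against -2.01, -0.87 and -0.68 in B6-ob/ob islets, with sample 12 the highest of NZO and sample 6 the highest of B6-ob/ob. Its correlation with the family mean over 6 arrays was -0.77. With the mean of both probes Rpl11 differed by -0.56 (adjusted p = 0.128 by limma, n = 3), past no threshold. That mean takes in a probe on the stretch that the called one skips.

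**Figure D4:**
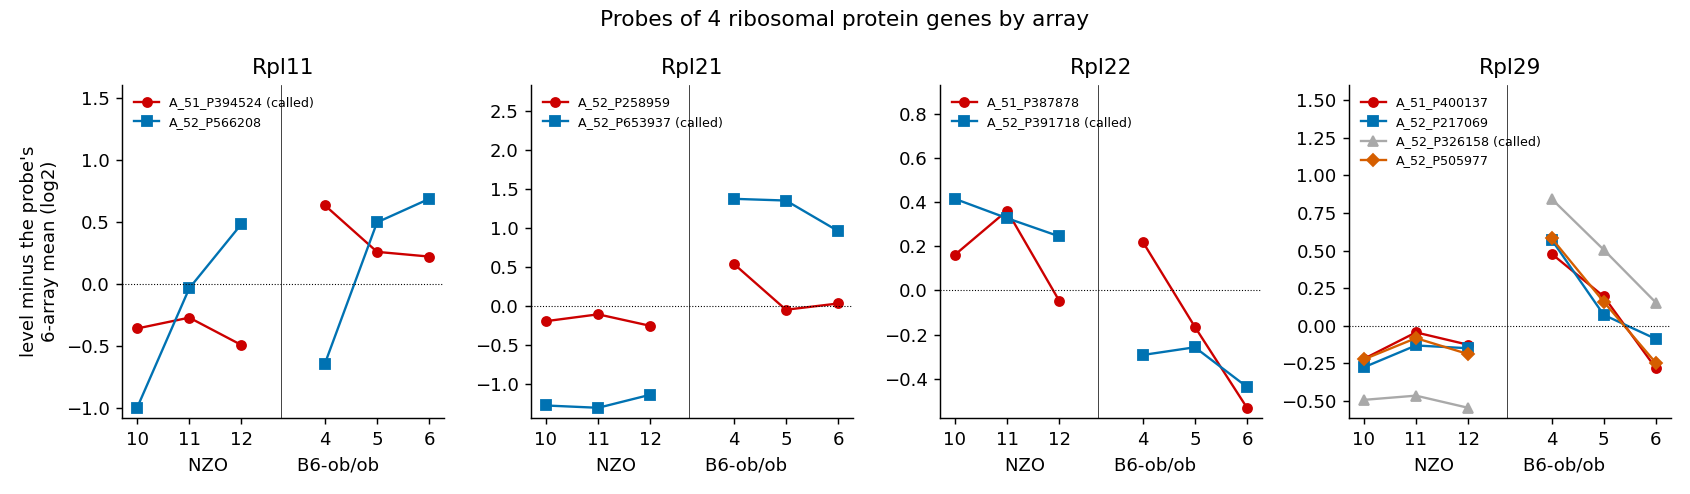
Level of each tested probe of Rpl11, Rpl21, Rpl22 and Rpl29 minus its own 6-array mean (log2), by array, NZO on the left and B6-ob/ob on the right of each panel, each panel with its own axis. The called probes differ between strains by -0.75 (Rpl11), -2.47 (Rpl21), 0.66 (Rpl22) and -1.0 (Rpl29), and within each strain the second Rpl11 probe is highest on the array where the called one is lowest, NZO 12 and B6-ob/ob 6.

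The source of the probe went with how it behaved. The 110 tested probes designed on RefSeq transcripts had a median correlation of 0.95 with the family mean without their own gene, and 1 was below 0. The 18 designed on other clones had a median of 0.35, and 8 were below 0. Rps24 shows this within a gene: its RefSeq probe A_51_P312936 correlated at 0.99 and its clone probe A_52_P100002 at -0.77. The median difference of probes that span an intron (39) was 0.13, and that of the other 89 was 0.09. Genes with near-identical copies elsewhere in the genome are uncertain, since a probe of 60 bases may read both, and 134 of 136 probes with a position lie on their gene's chromosome.

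The other genes of translation were read from lists. Of 43 translation factors and other transcripts with a 5′ oligopyrimidine tract, 1 was higher in NZO and 0 were lower, with a median of 0.08 (at all genes 13.2% and 9.00%, median -0.03). The called gene was Vim (1.67 ± 0.42), which encodes an intermediate filament of mesenchymal cells and is also 1 of the 18 stellate and fibroblast markers. Fau, a fusion of a ubiquitin-like and a ribosomal protein, correlated with the family mean at 0.896, and Gnb2l1, which encodes the ribosomal scaffold Rack1, at 0.987. Neither was called. Eef1a1 and Eef2, the elongation factors, differed by 0.13 ± 0.14 and -0.06 ± 0.16. In this list the order of B6-ob/ob 4, 5 and 6 held at 31 of the 43, against 33.6% of all genes. That of NZO 11, 10 and 12 held at 19, against 24.2%.

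Of 75 mitochondrial ribosomal protein genes, which serve the separate ribosome of that organelle, 1 was higher and 5 were lower, with a median of -0.16. Over all genes 13.2% were higher and 9.00% lower. Mrpl46 was at 1.02, 1.20 and 0.89 in NZO islets, against 2.03, 1.92 and 1.75 in B6-ob/ob islets (-0.87 ± 0.14; limma adjusted p = 0.0070, n = 3), so the strains were well apart. Mrpl55 (-0.85) and Mrps27 (-0.62) were lower as well, and Mrpl50 (0.74) was the 1 that was higher. The order of samples 4, 5 and 6 held at 61 of the 75, against 33.6% of all genes. That of NZO 11, 10 and 12 held at 42, against 24.2%.

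Of 84 genes of ribosome biogenesis, which build the subunits in the nucleolus, 1 was higher and 11 were lower, with a median of -0.17. The shares over all genes were 13.2% and 9.00%. Nvl, an ATPase of large subunit assembly, was at -4.67, -4.86 and -4.64 in NZO islets, against -2.98, -3.15 and -3.57 in B6-ob/ob islets (-1.49 ± 0.18). Its probe was well above background on 2 of the 3 NZO arrays, and the difference was -0.51 with normexp and quantile normalisation, -0.84 with the mean of its probes and -0.20, past no threshold, with the dimmest (limma adjusted p = 0.679, n = 3). Utp14a (-0.96) and Ltv1 (-0.71), both of small subunit maturation, were lower too, and Noc2l (0.62), of large subunit export, was higher. The counts of these lists depend on the fit: over the 5 lists together 6 genes were higher and 17 lower, not counting members of the family, and 2 were lower with slide as a fixed block and 4 without B6-ob/ob 5. The biogenesis list had a median correlation with the family mean of -0.01 over 6 arrays, a value that its own strain difference also enters. Within NZO the order of 11, 10 and 12 held at 41 of the 84, against 24.2% of all genes. Within B6-ob/ob the order of 4, 5 and 6 held at 28, against 33.6%.

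Of 36 regulators of mTORC1 and MYC, 1 was higher and 1 lower, against 13.2% and 9.00% of all genes. Ddit4l, which restrains mTORC1, was at 0.78, 0.33 and 0.46 in NZO islets, against -2.15, -2.33 and -2.39 in B6-ob/ob islets (2.81 ± 0.16), with no overlap. Sesn2, another restraint on mTORC1 and a p53 target, differed by -0.62 ± 0.11. Of 20 genes of ribosomal stress and p53 targets, 2 were higher, Phlda3 (1.29) and Pmaip1 (0.87), and 2 were lower, Sesn2 and Rpl11 itself. These counts are near the shares over all genes, 13.2% higher and 9.00% lower. Mdm2 differed by 0.33 ± 0.18 and Cdkn1a by 0.56 ± 0.30, past no threshold.

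**Figure D5:**
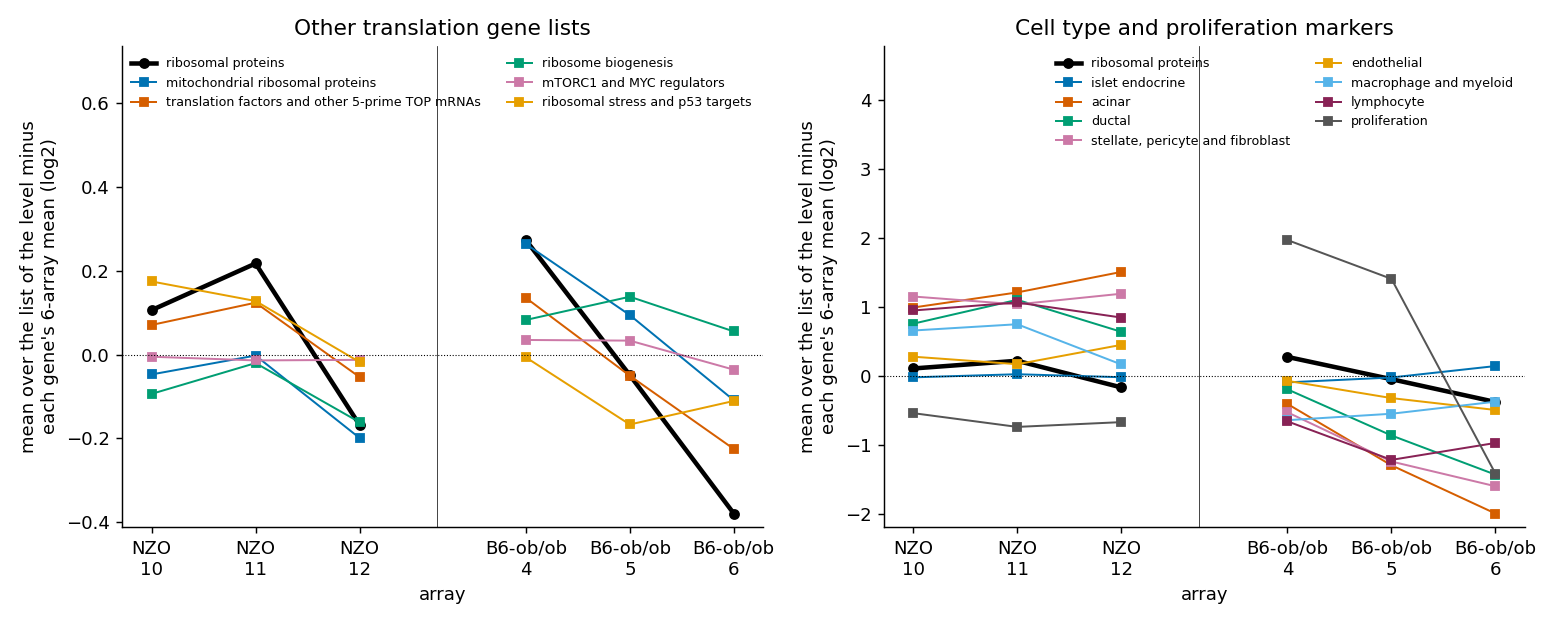
Mean over each list of the level minus each gene's 6-array mean (log2), by array, for 5 lists of translation genes (left panel) and 8 marker lists (right panel, wider axis), with the ribosomal protein genes in black and NZO left of B6-ob/ob. Acinar markers lie at 0.99 to 1.5 in NZO, against -2.0 to -0.41 in B6-ob/ob, and proliferation genes span 3.38 within B6-ob/ob.

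The islet label was checked against 14 endocrine markers, which averaged 6.83 to 6.88 in NZO and 6.76 to 7.0 in B6-ob/ob islets, with 1 called, Nkx6-1 (-0.81). For this and the marker counts below, the shares over all genes tested were 13.2% higher and 9.00% lower in NZO. Other cells were present too, and fewer cells of a type and less RNA per cell cannot be told apart in such bulk samples. Of 21 acinar markers 19 were well above background on all 6 arrays, and all 19 were higher in NZO; the 20 tested were at means of 5.81, 6.03 and 6.33 in NZO 10, 11 and 12, against 4.41, 3.52 and 2.83 in B6-ob/ob 4, 5 and 6. The 24 tested proliferation genes, 21 of them well above background on all 6 arrays, averaged -0.82, -1.02 and -0.95 in NZO, against 1.69, 1.13 and -1.69 in B6-ob/ob. Within B6-ob/ob both lists have the family's order of samples, and within NZO neither does. Of the other markers well above background on all 6 arrays, 3 of 9 ductal, 14 of 16 stellate and fibroblast, 4 of 13 endothelial and 6 of 11 myeloid genes were higher in NZO and none was lower. Of 14 lymphocyte markers on the array 7 were tested and 3 were well above background on all 6 arrays, so the list is not read. The mean of all 12 tested ductal markers had the family's order within both strains. It was 1.73, 2.07 and 1.61 in NZO 10, 11 and 12, against 0.78, 0.11 and -0.46 in B6-ob/ob 4, 5 and 6. This mean includes genes that passed background on only some arrays, and the 9 others were not averaged alone. The part of these cells in the order of the ribosomal protein genes was not tested.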

How the data were processed

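Cy3-labelled cRNA of 6 islet samples was hybridised to arrays of Agilent design 14868, per the labels and file headers. The deposited scanner files give linear intensities of spots. Per the file headers, Feature Extraction 10.5.1.1 (9.1 per the submitters' processing notes) had subtracted background and detrended each array, without scaling between arrays. The authors' deposited value table, used here as an alternative, holds linear intensities of these arrays. Its column medians are 21.3, 21.4 and 21.4 for the labels NZO 10, 11 and 12 and 22.1, 21.4 and 22.4 for B6-ob/ob 4, 5 and 6. Its scale is linear and uncentred, and its direction is unsettled, each column following an array of the other strain.

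Control spots and flagged spots (61 to 76 per array) were left out. Log2 intensities were averaged over a probe's spots and lowered by each array's 75th percentile. Probes that passed background on 3 or more arrays were kept (24628 of 41174), and each gene was read by its brightest kept probe. Strains were compared with lmFit and eBayes (limma 3.58.1, R 4.3.3), two-sided, over 16418 genes and, in a second fit, 24628 probes, with Benjamini-Hochberg adjustment at 0.05. The functions were tested on simulated data. The number of arrays limits the precision, and exact permutation of 3 against 3 arrays cannot go below p = 0.1.

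The members, the lists and the genes named were chosen with earlier results of these data known. The named genes are the called members, the 3 widest ranges within each strain, a fixed set of well-known members, up to 3 called genes per direction of each of 5 companion lists, and the 3 genes most like the family mean; 1 gene that this rule names is not reported here. Rpl28, Rpl18, Rpl27a and the other members named near the ends of the range, the probes of Rpl21, Rpl22 and Rpl29, and the uncalled genes of the lists were named after their values were seen. Probe accessions gave the file's gene name at 112 of 114 matched probes. Alternatives were other background and scaling methods, the value table, other filters and gene summaries, slide as a block, another prior, array weights, leaving out each array and, added after seeing the data, centring on the family.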

Additional observations from a re-analysis of the deposited data

How the results depend on the processing

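No paired analysis was possible because the 2 strains share no replicate numbers; slides 2 and 3 hold both strains, and slide was fitted as a block in its place. The 6 samples, and no islets from before the change of diet, limit every statement, and the direction of each strain difference rests on the scanner files' labels. No called gene or probe changed sign under an alternative, other than by the value table's own labels, which turn every sign. Ddit4l kept its call in 21 of 21 alternatives, Utp14a in 20, Mrpl46 in 19, Nvl in 18 of 20, Vim, Noc2l and Pmaip1 in 14, and Mrps27 and Rpl11 in 13. With quantile normalisation 2 ribosomal protein genes and 5 probes were lower in NZO, where 1613 of all 16418 genes were lower. There 19 ribosomal protein genes had no overlap of strains (24.4%, against 42.3% of all genes). The orders of B6-ob/ob 4, 5, 6 and of NZO 11, 10, 12 held at 45 and 39 genes. With median scaling the NZO order held at 45. Without scaling 0 probes were higher in NZO, 4 genes had no overlap (33.7% of all genes), the orders held at 43 and 0, and 3 companion genes were higher and 9 lower. On the spike-in scale 1347 genes were higher and 349 lower, among them 0 lower ribosomal protein genes and 3 higher and 1 lower companion genes; 0 probes were higher and 1 lower, 24 genes had no overlap (30.8%, against 17.9% of all genes), and the orders held at 3 and 0. With normexp 2 ribosomal protein genes and 6 probes were higher, where 2043 of all 16418 genes were higher. There 21 ribosomal protein genes had no overlap (26.9%, against 40.3%), and the orders held at 49 and 27. Counts over all probes are not given for the alternatives. By the labels of the authors' deposited values 3 ribosomal protein genes were higher and 0 lower. Of all 16009 genes there 1649 were higher and 2069 lower. No overlap was seen at 21 of 77 ribosomal protein genes (27.3%, against 42.2%). There 22 companion genes were higher and 8 lower. By these labels the orders held at 32 and 11. The columns labelled B6-ob/ob 4, 5 and 6 follow NZO 11, 10 and 12, so 32 counts the NZO order. Those labelled NZO 11, 10 and 12 follow B6-ob/ob 4, 6 and 5, so 11 counts another order than the family's. With the sign of that value table turned, 3 ribosomal protein genes were lower (Rpl11, Rpl29 and Rps2), beside 1649 of all genes. Of companion genes 11 were lower without the filter, 26 with the mean of probes and 32 with the dimmest. No overlap was seen at 6 genes with the mean (42.4% of all genes) and at 4 with the dimmest probe (41.4%). With the dimmest probe 1 ribosomal protein gene was higher (Rpl22), where 1981 of all genes were higher. With both summaries the 1 lower gene was Rpl21, not Rpl11. Of all genes 1645 were lower with the mean and 1642 with the dimmest probe. With slide as a fixed block 814 genes were lower, 0 of them ribosomal, and 2 companion genes. With array weights 3616 genes were higher and 3307 lower, 4 ribosomal protein genes were higher (Rps27, Rpl28, Rpl23a and Rps15a), 25 companion genes were higher and 50 lower, and 6 probes were higher and 5 lower. With arrays centred on the family, added after seeing the data, 1426 genes were higher and 805 lower, 3 companion genes were higher and 6 lower, 0 probes were higher, and 28 genes had no overlap (35.9%, against 31.3% of all genes). The median difference within slide 3 was 0.48. The cause of these changes was not tested. Leaving out each array gave 1298 to 2217 genes higher and 635 to 1560 lower, 1 to 9 and 4 to 18 companion genes, 0 to 1 lower ribosomal protein genes, 1 to 3 lower probes (1 without B6-ob/ob 5), a median difference of -0.03 to 0.29, and 2 to 20 genes without overlap (13 without NZO 12, 20 without B6-ob/ob 4, 9 without B6-ob/ob 6, where 51.4%, 52.9% and 54.5% of all genes had none; with an array left out, overlap can only fall). The 21 named genes that were not called changed sign 42 times in 441 alternative values, and 2 of them, Rpl22 and Rps27, gained a call.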
